A study of Mus musculus with 6 samples.

Results

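The genes of oxidative phosphorylation were followed in RNA of mouse olfactory bulbs after one nostril had been plugged. Members were taken by symbol. They are the genes that start with mt-, Uqcr or Atp5, the numbered genes of the Nduf families a, b, c, s and v, the numbered Cox genes of the cytochrome oxidase subunits, and Sdha, Sdhb, Sdhc, Sdhd, Cycs and Cyc1. This gave 99 of the 22095 genes of the table, 13 on the mitochondrial genome and 86 in the nucleus. The nuclear genes were 37 of complex I, 4 of complex II, 9 of complex III, 18 of complex IV, 17 of complex V and Cycs. A few members share the symbols without being classical subunits. Ndufa4, counted here with complex I by its name, is known as a subunit of complex IV, Ndufa4l2 is its relative, and Cox7a2l and Atp5s are known as accessory factors. No ribosomal or transfer RNA of the mitochondrion was among the members.

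All mice were of the outbred ICR stock. A silica gel plug tied with suture was placed in the left nostril at postnatal day 30, and the bulbs were taken 60 days later after perfusion with saline. The left group is the bulb on the plugged side and the right group the bulb on the open side of the same animal, from mice numbered 1037, 1038 and 1039, with 1 bulb per library. Polyadenylated RNA was sequenced. All 3 mice had a plug, so a difference between sides that exists without one cannot be told apart from one that follows it.

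Oxidative phosphorylation is the last stage of respiration. Complexes I and II pass electrons from NADH and succinate to quinone, complex III passes them to cytochrome c, complex IV passes them to oxygen, and complex V, the ATP synthase, uses the proton gradient that results. Complexes I, III, IV and V each combine subunits encoded on the mitochondrial genome with subunits encoded in the nucleus, whereas complex II is nuclear throughout. In brain, neurons are known to spend much of this ATP on ion pumping and synaptic transmission.

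The libraries held 14571453 to 15590938 counts, and 3 counts, taken as the upper limit for a gene at 0, equal 0.192 to 0.206 CPM, that is, counts scaled to the library total (counting error only). The library labelled left 1038 went against its label. Over the genes that passed the filter on low counts, its log2 CPM values (here with TMM scaling factors) correlated with those of each other library at 0.847 to 0.855. The others correlated among themselves at 0.981 to 0.992. The bulb interneuron factors Dlx2 and Dlx6 and the sensory axon genes S100a5 and Stoml3 were at 0 in it, and 7 genes of cerebellar granule cells summed to 5662 CPM, against 767 to 945 CPM in the others. The 8 bulb interneuron genes together still summed to 915 CPM in the library labelled left 1038, against 2274 to 3455 CPM in the others. The 8 mitral and tufted cell genes summed to 1045 CPM in it, against 2182 to 2599 CPM. The 8 sensory axon genes together summed to 331 CPM in it, within the range of the others, with Omp near 0 as well and most of the sum from Gng13, Gnal and Adcy3. It is therefore given apart, and the main comparison sets left 1037 and left 1039 against the 3 right libraries. In these 5 libraries, genes known from sensory axons and from bulb interneurons were present.

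In the left bulbs genes of the respiratory chain took a smaller share of all counts than in the right bulbs, with the widest gap for the mitochondrial genome. The 13 mitochondrial genes took 4.35% and 3.63% of all counts in left 1037 and left 1039, against 5.10%, 4.94% and 5.11% in right 1037, 1038 and 1039. The 86 nuclear members took 0.840% and 0.831% in the left libraries, against 0.919%, 0.942% and 0.875% in the right libraries. Neither sum overlapped between the sides. The ratio of the mitochondrial to the nuclear sum was 5.18 and 4.37 on the left, against 5.54, 5.25 and 5.83 on the right. The mitochondrial share was thus lower on the left also relative to the nuclear members, but left 1037 lay close to right 1038. In summed CPM, the left mean was 0.790 of the right mean for the mitochondrial genome, 0.839 for Cycs, 0.902 for complex IV, 0.903 for complex V, 0.916 for complex III, 0.943 for complex I and 0.942 for complex II. Complexes III, IV and V and Cycs did not overlap between sides either. For complex I, left 1037 and left 1039 held 2277 and 2287 CPM, against 2418, 2520 and 2323 CPM in right 1037, 1038 and 1039, so the sides did not overlap but right 1039 lay close to the left values. For complex II, the left values of 561 and 584 CPM lay below the right values of 586, 638 and 599 CPM by less than the spread within either side. No test was made of these sums.

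**Figure D1:**
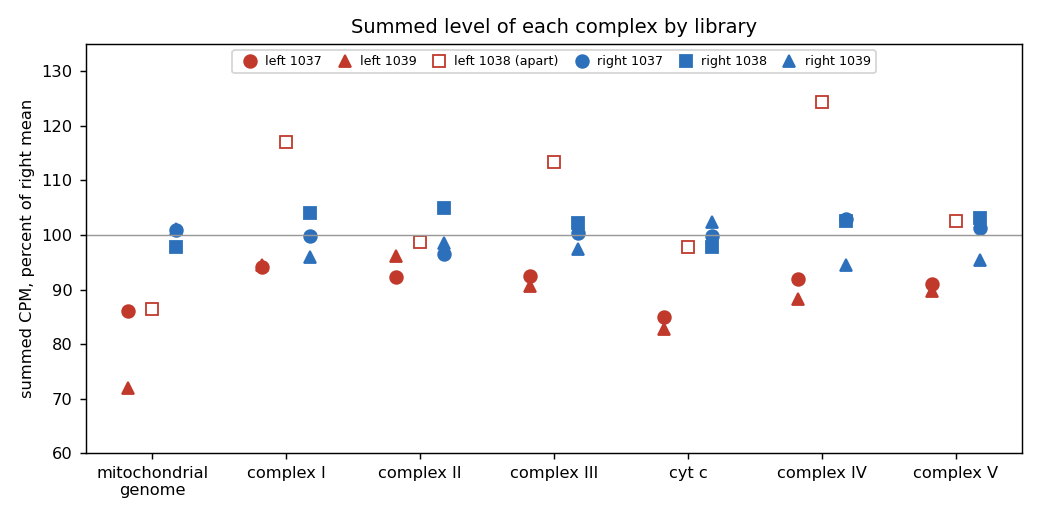
Summed CPM of each complex in each library, as percent of the mean of the 3 right libraries (the axis starts at 60 percent). Filled red symbols are left 1037 and left 1039, blue symbols the right libraries, and the open square the library labelled left 1038. The mitochondrial genome shows the lowest left values, and the open square lies above the right mean for complexes I, III, IV and V.

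Gene by gene, 27 of the 94 members with enough counts were called lower on the left and 0 higher by edgeR's quasi-likelihood test at an adjusted p under 0.05. That is 28.7% of them, where 6.46% of all 14412 genes were called lower and 3.16% higher, 9.62% in all. The calls comprised 7 of 12 genes of the mitochondrial genome, 4 of 37 of complex I, 0 of 4 of complex II, 3 of 9 of complex III, Cycs, 7 of 14 of complex IV and 5 of 17 of complex V. The log2 fold change (left over right, after scaling) was below 0 for 89 of the 94, with a median of -0.41 for the mitochondrial genes and -0.18 for the nuclear ones, where the median of all genes was 0.005. The remaining 5 members, Cox6a2, Cox7b2, Cox8b, Cox8c and mt-Nd4l, had too few counts to be tested. In both mouse 1037 and mouse 1039, 58 of the 94 tested members were lower on the left in CPM, all 27 called ones among them. The calls were made on these same libraries, so this adds no support to them. The share of all genes lower in both mice was not counted. For each of the 27 called members, both left libraries lay below the 3 right libraries in CPM. That separation held for 45 of the 94 tested members and for 13.2% of all genes tested, and the opposite one for 5 members and 33.2% of all genes.

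The sizes of the changes were small, and the calls rest on few libraries. Only Atp5g1, Cycs, mt-Nd5 and mt-Nd6 were called in each of the 5 fits that left 1 library out. Leaving out right 1037, 1038 or 1039 left 4, 4 and 22 members called lower, where 479, 488 and 730 of all genes were. The main fit had 27 and 931. Without left 1037 or left 1039 that side held 1 library. The mitochondrial median was then -0.51 and -0.28, and the nuclear median -0.20 and -0.18. Scaling mattered as well. Scaled by the library total only, the split of all genes was 975 higher (6.77%) and 589 lower (4.09%), against 456 higher and 931 lower with TMM factors. The members then had 2 called higher (Cox6b2 and mt-Nd3) and 9 lower (Atp5g1, Cox5b, Cycs, Ndufa1, mt-Co1, mt-Nd1, mt-Nd2, mt-Nd5 and mt-Nd6). Of the nuclear members 4 of 82 were then lower (4.88%), near the share of all genes, and of the mitochondrial genes 5 of 12 (41.67%). In complex IV 1 of 14 was lower and 1 higher. With the mouse as a block 24 members were called lower, 23 of them among the 27, where 7.36% of all genes were. CPM values in the text carry no TMM factor. The factors were 1.03 and 1.04 in left 1037 and left 1039, against 0.971, 0.979 and 0.983 in right 1037, 1038 and 1039, so a left to right ratio of CPM is slightly above the fitted fold change.

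**Figure D2:**
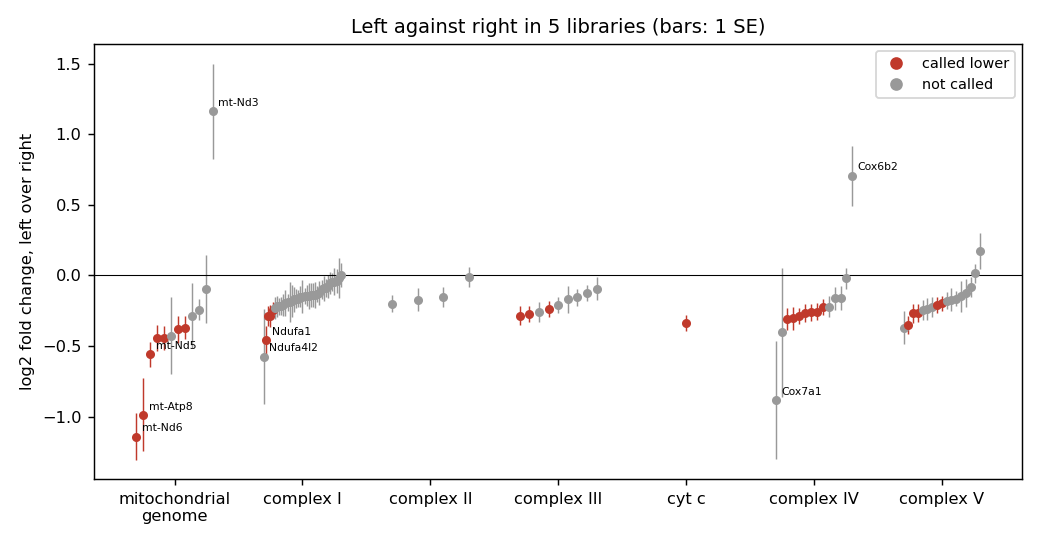
Log2 fold change of each tested member, left over right, in the 5 libraries, ordered by value within each complex, with bars of 1 SE. Red points are the 27 members called lower, grey points those not called, and names mark the members beyond 0.45 in either direction. The 7 called genes of the mitochondrial genome lie between -0.37 and -1.14, and the called nuclear genes lie between -0.20 and -0.35, except for Ndufa1 at -0.46.

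Other cell type markers moved with the side in these 5 libraries. Of 8 sensory axon genes, 5 were called lower on the left, and their sum was 190 and 128 CPM in the left libraries, against 458, 394 and 373 CPM in the right libraries. Of 8 bulb interneuron genes, 4 were called lower, with sums of 2274 and 2526 CPM on the left, against 3212, 3455 and 3170 CPM on the right, and Dlx genes were present on both sides. Mitral and tufted cell genes gave 1 lower and 2 higher calls of 8, with sums of 2599 and 2192 CPM on the left, against 2182, 2238 and 2191 CPM on the right. Astrocyte genes summed to 3119 and 3131 CPM on the left, against 2570, 2804 and 2792 CPM on the right, with 2 of 7 called higher and 1 lower. Microglial genes summed to 182 and 196 CPM, against 150, 150 and 155 CPM, with 0 of 6 called by edgeR and 3 at an unadjusted p under 0.05. Oligodendrocyte and endothelial genes overlapped between sides, with sums of 1941 and 2318 CPM against 2148, 1875 and 2361 CPM, and of 236 and 255 CPM against 236, 233 and 252 CPM. Mural cell genes summed to 298 and 283 CPM on the left, against 307, 348 and 331 CPM on the right, with 1 of 10 called lower. Of 6 tested genes known from cerebellar granule cells, Neurod1 among them, 3 were called higher and 1 lower, with sums of 910 and 945 CPM on the left, against 767, 821 and 839 CPM on the right. Blood genes summed to 4.92 and 10.8 CPM on the left, against 5.00, 2.52 and 8.87 CPM on the right, and 0 of 3 were called by edgeR, with 0 at an unadjusted p under 0.05. The part of these markers in the results on the members was not tested. In bulk tissue, fewer cells of a type and less RNA per cell cannot be told apart.

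The mitochondrial genes fell into separate tiers of level. Per kilobase of transcript, as means over the 5 libraries, mt-Co1 stood at 11156 CPM, mt-Nd1 at 7971, mt-Cytb at 7033, mt-Nd2 at 4826, mt-Nd4 at 2607, mt-Atp8 at 2385 and mt-Nd5 at 2305 CPM. Then came mt-Nd6 at 25.5 CPM per kilobase, mt-Co2 at 10.4, mt-Atp6 at 5.87, mt-Co3 at 4.47, mt-Nd3 at 3.93 and mt-Nd4l at 0.177 CPM per kilobase. These genes are read as long joint transcripts, as is known, and mt-Nd6 is the one protein gene read from the opposite strand. Apart from mt-Nd6, the genes of the low tier lie within a stretch that has a nuclear copy. In the GENCODE M21 annotation of GRCm38, a run of 7 unprocessed pseudogenes on the minus strand of chromosome 1, from 24611535 to 24616197, repeats the stretch from the end of mt-Co1 to the middle of mt-Nd4. None of these pseudogenes was in the deposited table. Gm28661 equals mt-Co2 over 681 of 681 bases compared, Gm10925 equals mt-Atp6 over 678 of 678, Gm28437 equals mt-Co3 over 783 of 783, Gm10222 equals mt-Nd4l over 294 of 294, and Gm28439 equals the first 876 bases of mt-Nd4. Gm28438 differs from mt-Nd3 in 1 of 345 bases (T3C, gene base first, counted from the first base of the gene), and Gm29216 differs from the end of mt-Co1 in 6 of 492.

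The start of mt-Nd3 and of mt-Co2 and the part of mt-Co1 where the copy begins are shown with their copies, since they show how little separates them. Capitals mark the bases that differ, and all are written 5′ to 3′ on the gene's strand, from the GRCm38 transcripts.
mt-Nd3 (chrM:9459-9498, plus strand): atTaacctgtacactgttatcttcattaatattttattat
Gm28438 (chr1:24613080-24613119, minus strand): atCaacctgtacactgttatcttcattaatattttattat
mt-Co1 (chrM:6381-6420, plus strand): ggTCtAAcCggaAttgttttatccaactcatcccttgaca
Gm29216 (chr1:24616158-24616197, minus strand): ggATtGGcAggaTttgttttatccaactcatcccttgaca
mt-Co2 (chrM:7013-7052, plus strand): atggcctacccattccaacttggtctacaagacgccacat
Gm28661 (chr1:24615526-24615565, minus strand): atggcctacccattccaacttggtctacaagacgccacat

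Counted in words of 50 bases, mt-Co2, mt-Atp6, mt-Co3, mt-Nd3 and mt-Nd4l shared 100%, 99.5%, 99.9%, 98.0% and 98.8% of their words with another annotated gene. For mt-Nd4 the share was 62.2%, for mt-Co1 51.1%, for mt-Nd2 8.19% and for mt-Nd5 7.61%, and for mt-Nd1, mt-Cytb, mt-Atp8 and mt-Nd6 it was 0. The 5 genes with nearly all words shared are 5 of the 6 lowest, and mt-Nd6 is the other. How reads with several positions were counted is not stated in the sources used here, and its part in these levels was not tested. The reference is of another strain than the ICR mice.

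mt-Atp8, which encodes a small subunit of the ATP synthase, lies between mt-Co2 and mt-Atp6 in the same stretch, yet it stood in the high tier. It had no counterpart gene among the annotated pseudogenes, but only annotated genes were searched. Its last bases are also the first bases of mt-Atp6, and so lie in Gm10925, in an overlap shorter than the 50-base words. Its share of 0 therefore does not show that mt-Atp8 lacks a nuclear copy. Between Gm10925, which ends at 24614651, and Gm28661, which starts at 24614885, chromosome 1 was not searched for a copy. This gap is as long as the mitochondrial stretch between the parts of mt-Co2 and mt-Atp6 that these copies match, and most of mt-Atp8 lies in that stretch. The sequence of mt-Atp8 is shown in full.
mt-Atp8 (chrM:7766-7969, plus strand): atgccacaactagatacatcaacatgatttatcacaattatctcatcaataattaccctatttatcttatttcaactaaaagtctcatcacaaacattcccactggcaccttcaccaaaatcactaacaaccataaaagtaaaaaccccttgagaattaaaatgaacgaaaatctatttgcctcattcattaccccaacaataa

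**Figure D3:**
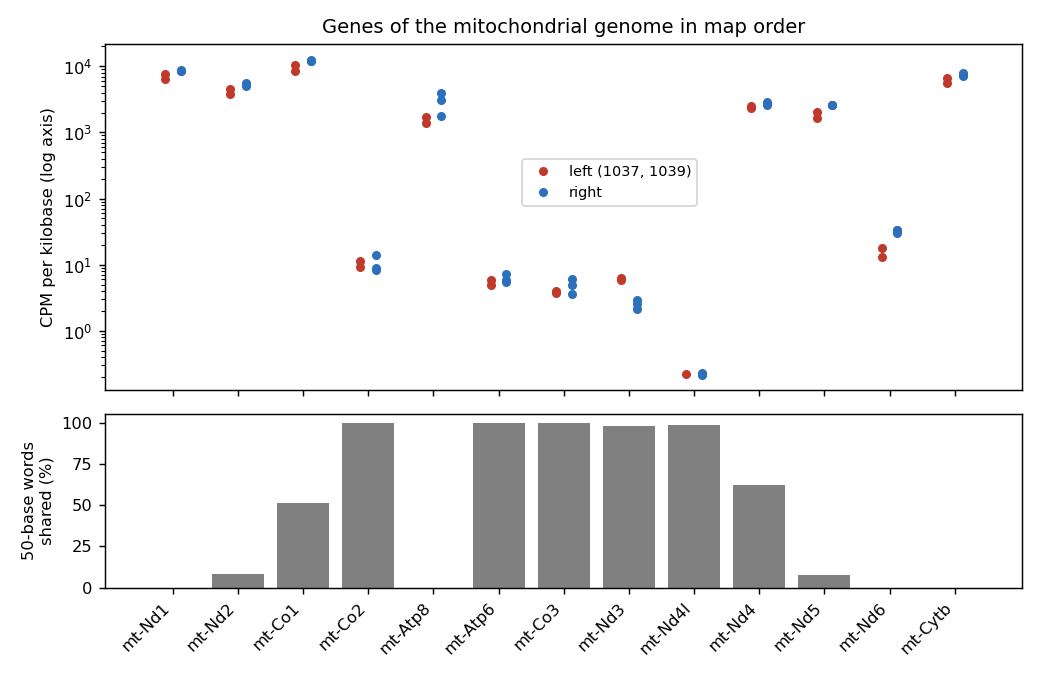
Genes of the mitochondrial genome in map order. The upper panel shows CPM per kilobase in each of the 5 libraries on a log axis (left red, right blue, a count of 0 for mt-Nd4l in left 1039 not drawn), and the lower panel the percent of each gene's 50-base words found in another annotated gene. Genes at or near 100 percent lie at 14 CPM per kilobase or less in every library.

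Among genes for the complex I core, mt-Nd5 and mt-Nd6 fell in the left bulbs. mt-Nd5 encodes a proton-pumping subunit and stood at 3753 and 3053 CPM in left 1037 and left 1039, against 4787, 4732 and 4700 CPM in right 1037, 1038 and 1039. The right values lay close together, and both left values were below all of them by more than the spread on either side. On the log2 scale mt-Nd5 fell by 0.56 (SE 0.09, adjusted p = 0.00504). mt-Nd6 had 144 and 101 reads on the left (9.33 and 6.70 CPM), against 269, 264 and 226 reads on the right (17.3, 17.5 and 15.4 CPM). It fell by 1.14 (SE 0.16, adjusted p = 0.00335), the largest fall among the called members. Its annotated exon overlaps the end of mt-Nd5 on the opposite strand, and whether the counts used strand is not stated in the sources used here. Both calls held in each fit without 1 library, with log2 fold changes from -0.72 to -0.41 for mt-Nd5 and from -1.40 to -0.91 for mt-Nd6, and in mouse 1037 the left to right CPM ratio was 0.784 and 0.541, against 0.650 and 0.435 in mouse 1039.

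The other complex I genes of the mitochondrial genome were mt-Nd1, mt-Nd2, mt-Nd3, mt-Nd4 and mt-Nd4l. mt-Nd1 averaged 6735 ± 730 CPM in the left libraries (SD, n = 2) and 8224 ± 157 CPM in the right libraries (SD, n = 3), and fell by 0.37 (SE 0.08, adjusted p = 0.0207). mt-Nd2 averaged 4277 ± 543 CPM on the left and 5498 ± 230 CPM on the right, and fell by 0.44 (SE 0.09, adjusted p = 0.0130). mt-Nd4 stood at 3504 and 3204 CPM on the left, against 3689, 3580 and 3986 CPM on the right, with a log2 fold change of -0.24 (SE 0.07, adjusted p = 0.0693), which did not pass. mt-Nd3 had 31 and 33 reads on the left (2.01 and 2.19 CPM), against 16, 11 and 13 reads on the right (1.03, 0.729 and 0.887 CPM). It was the member with the highest value above 0, at 1.16 (SE 0.34, adjusted p = 0.0609), and did not pass. It passed when scaled by the library total only (adjusted p = 0.0436), and its reads cannot be told from those of Gm28438 over nearly all of its length. mt-Nd4l had at most 1 read in each of the 5 libraries. The call of mt-Nd1 ended without right 1037, 1038 or 1039 (adjusted p up to 0.138) and that of mt-Nd2 without right 1037 or right 1038 (adjusted p up to 0.0866).

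mt-Cytb, the quinone-oxidising core of complex III, stood at 7754 and 6370 CPM in left 1037 and left 1039, against 8836, 8238 and 9034 CPM in right 1037, 1038 and 1039. It fell by 0.38 (SE 0.09, adjusted p = 0.0315). mt-Co1, the catalytic subunit of complex IV and the member with the most counts, stood at 16179 and 13242 CPM on the left, against 18909, 18404 and 19448 CPM on the right. It fell by 0.44 (SE 0.09, adjusted p = 0.0172). In both genes left 1039 was the lowest library, and without it the log2 fold change was -0.24 for mt-Cytb and -0.30 for mt-Co1. Both calls ended without right 1037, right 1038 or right 1039 (adjusted p up to 0.158 and 0.126). mt-Co2 and mt-Co3, the other complex IV genes, had 6.22 and 7.83 CPM, against 6.16, 5.63 and 9.56 CPM, and 3.11 and 2.92 CPM, against 4.75, 2.85 and 3.89 CPM. Their groups overlapped and they did not pass (adjusted p = 0.846 and 0.374), nor did mt-Atp6 of complex V, at 4.02 and 3.32 CPM on the left, against 4.94, 3.97 and 3.75 CPM on the right (adjusted p = 0.496). mt-Atp8 stood at 354 and 285 CPM on the left, against 798, 631 and 365 CPM on the right. Right 1039 lay close to left 1037, and the fall of 0.99 (SE 0.26, adjusted p = 0.0416) ended when left 1039, right 1037 or right 1038 was left out, with adjusted p reaching 0.150, and with DESeq2 and the mouse as a block.

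The nuclear genes of complex I had the smallest share of calls among the complexes that gave any. Of 37 genes, 36 had a log2 fold change below 0, with a median of -0.15 and a range from -0.58 to 0.005, and 4 fell. Ndufa1, a small accessory subunit encoded on chromosome X, stood at 25.3 and 24.0 CPM in left 1037 and left 1039, against 34.6, 32.2 and 29.2 CPM in right 1037, 1038 and 1039. It fell by 0.46 (SE 0.10, adjusted p = 0.0229), the largest fall among the called nuclear members. Ndufs1, a core subunit that carries electrons, averaged 137 ± 0.822 CPM in the left libraries (SD, n = 2) and 158 ± 12.03 CPM in the right libraries (SD, n = 3), and fell by 0.29 (adjusted p = 0.0369). Ndufb9, an accessory subunit, fell by 0.29 (SE 0.08, adjusted p = 0.0490), a call that the block by mouse ended (adjusted p = 0.0741). Each of the 4 calls ended in at least 3 of the 5 leave-outs, without left 1039, right 1037 or right 1038 in all 4 (adjusted p up to 0.201). Ndufs1 overlaps Eef1b2, and 23.4% of the 50-base words of Ndufb9 lie in another gene, while Ndufa1 has neither. The remaining 33 genes did not pass. Ndufa4l2, known as a gene induced by low oxygen, had the lowest value at -0.58 (SE 0.34, adjusted p = 0.336), with 1.88 and 1.66 CPM on the left, against 1.80, 3.38 and 2.32 CPM on the right.

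None of the 4 genes of complex II, which is also the succinate dehydrogenase of the citric acid cycle, passed by edgeR, with 1 at an unadjusted p under 0.05. Sdha, the flavoprotein subunit, stood at 329 and 343 CPM on the left, against 355, 385 and 355 CPM on the right. Its groups did not overlap, and its log2 fold change was -0.20 (SE 0.06, adjusted p = 0.0705). Sdhb, the iron-sulfur subunit, and Sdhc and Sdhd, the membrane anchors, had -0.17, -0.15 and -0.01 with overlapping groups (adjusted p = 0.241, 0.211 and 0.935). Sdha passed with DESeq2 and with none of the other alternatives.

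All 9 nuclear genes of complex III had a log2 fold change below 0, with a median of -0.21, and 3 fell. Uqcrfs1, the Rieske iron-sulfur protein, stood at 82.9 and 84.3 CPM in left 1037 and left 1039, against 96.5, 96.3 and 93.7 CPM in right 1037, 1038 and 1039. The libraries of each side lay close together, and Uqcrfs1 fell by 0.27 (SE 0.06, adjusted p = 0.0176). Uqcrh, the hinge protein next to cytochrome c, fell by 0.29 (SE 0.07, adjusted p = 0.0292), and Uqcrc1, a core protein, fell by 0.24 (SE 0.06, adjusted p = 0.0292). All 3 calls ended without any one of left 1039, right 1037 and right 1038, with adjusted p up to 0.167, those of Uqcrfs1 and Uqcrc1 also without left 1037, and that of Uqcrc1 also without right 1039. The other 6, Cyc1 among them, had values from -0.26 to -0.09 and did not pass.

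Cycs, the electron carrier between complexes III and IV, fell in the left bulbs and kept its call in every leave-out. It lies on chromosome 6, 50562563 to 50566538, and had 1901 and 1808 reads in left 1037 and left 1039, against 2256, 2140 and 2174 reads in right 1037, 1038 and 1039. That is 123 and 120 CPM on the left, against 145, 142 and 148 CPM on the right, and the gap between the sides was wider than the spread within either. It fell by 0.34 (SE 0.06, adjusted p = 0.00641), with -0.35 to -0.31 in the leave-outs. Of its 50-base words, 28.5% lie in other annotated genes, among them the pseudogene Gm10053, so its count is uncertain by the way such reads were assigned. DESeq2 with the mouse as a block, an alternative chosen after the data were seen, did not call it (adjusted p = 0.0680).

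Complex IV had the largest share of called nuclear genes among the complexes, with 7 of the 14 tested. They are among the ubiquitous subunits that surround the catalytic core, and Cox6b1, Cox6c and Cox7a2 were tested and not called. Cox5b stood at 111 and 109 CPM in left 1037 and left 1039, against 128, 130 and 124 CPM in right 1037, 1038 and 1039, and fell by 0.29 (SE 0.06, adjusted p = 0.0132). Cox4i1 averaged 266 ± 5.44 CPM in the left libraries (SD, n = 2) and 301 ± 13.2 CPM in the right libraries (SD, n = 3), and fell by 0.26 (SE 0.06, adjusted p = 0.0251). Cox8a averaged 124 ± 2.83 CPM on the left and 140 ± 4.91 CPM on the right, and fell by 0.26 (SE 0.06, adjusted p = 0.0276). Cox5a, Cox7b, Cox7c and Cox6a1 fell by 0.27, 0.31, 0.30 and 0.22, with adjusted p from 0.0317 to 0.0465. The 7 calls ended when left 1039, right 1037 or right 1038 was left out, with adjusted p reaching 0.201, all except that of Cox5b also without left 1037, and that of Cox6a1 also without right 1039. Cox7b and Cox8a have fewer than 5% of their 50-base words in another gene and no overlapping gene, while Cox7c shares 53.0% and Cox5a 32.0%.

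Isoforms of complex IV known from other tissues were low, and none of the 3 tested was called in the 5 libraries by edgeR, with 1 at an unadjusted p under 0.05. Cox6b2, known from testis, was that gene and lay above its ubiquitous partner genes in direction, with 5.18 and 4.65 CPM in left 1037 and left 1039, against 2.76, 2.92 and 2.87 CPM in right 1037, 1038 and 1039. The right libraries lay close together, and both left values were higher, with a log2 fold change of 0.70 (SE 0.21, adjusted p = 0.0698). It passed when scaled by the library total only (adjusted p = 0.0446). Cox7a1, known from heart and skeletal muscle, had 1.10 and 0.531 CPM on the left, against 1.41, 1.26 and 1.64 CPM on the right, at -0.88 (SE 0.42, adjusted p = 0.225). Cox4i2, known from lung, had 0.583 and 1.33 CPM on the left, against 1.09, 0.928 and 1.57 CPM on the right, at -0.40 (SE 0.46, adjusted p = 0.640), and its sign turned without left 1037 (0.07). Cox6a2, Cox7b2 and Cox8b had 0 to 9 reads per library in the 5 libraries, and Cox8c was at 0 in all 6.

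Complex V, the ATP synthase, had 5 called genes of 17, and all of its calls were lower. Atp5g1, which encodes subunit c of the rotor ring, was called in every leave-out. It lies on chromosome 11, 96068852 to 96075670, and stood at 68.2 and 66.8 CPM in left 1037 and left 1039, against 78.1, 83.4 and 82.3 CPM in right 1037, 1038 and 1039. It fell by 0.35 (SE 0.06, adjusted p = 0.00863), with -0.37 to -0.32 in the leave-outs. DESeq2 with the mouse as a block did not call it (adjusted p = 0.275), and called no nuclear member. Atp5g2 and Atp5g3, known to encode the same mature protein, had 0.01 and -0.24 (adjusted p = 0.930 and 0.0689). Atp5g2 shares 87.4% of its 50-base words with another gene, and Atp5g1 shares 11.6%. Atp5b and Atp5a1, the catalytic beta and the alpha subunit and the members with the most counts in the nucleus, averaged 898 ± 30.7 and 740 ± 14.2 CPM on the left (SD, n = 2), against 1020 ± 38.4 and 842 ± 48.9 CPM on the right (SD, n = 3). They fell by 0.27 each (adjusted p = 0.0296 and 0.0327). Atp5h of the stator stalk and Atp5c1, the gamma subunit of the central shaft, fell by 0.20 and 0.21 (adjusted p = 0.0491 and 0.0497). The block by mouse ended the calls of Atp5a1, Atp5h and Atp5c1 (adjusted p = 0.0670, 0.0872 and 0.0535) and added Atp5k, a small membrane subunit (-0.37, adjusted p = 0.0814, and 0.0111 with the block). Atp5c1 and Atp5h were called in no leave-out, Atp5a1 only without right 1039, and Atp5b only without left 1037 or right 1039 (adjusted p up to 0.178). Of the 12 genes that did not pass, Atp5s was highest at 0.17 (SE 0.13, adjusted p = 0.452).

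Promoters of the nuclear members hold binding motifs of the factors known to control respiratory genes in mammals, NRF1, GABPA and the oestrogen-related receptors. Of the 86 nuclear members, 69 matched an entry in RefSeq's promoters for GRCm38.p6, and the 250 bases before each gene's first listed start were searched on both strands, for the members and for all promoters alike. The NRF1 motif GCGC, any base and TGCGC was found in 12 of the 69 (17.4%), where 3.86% of 27025 promoters of the same length hold it. These promoters were not matched to the members for expression or base composition. The GABPA motif CCGGAAG was found in 11 (15.9%), against 7.05% of all promoters, and the receptor motif CAAGGTCA in 3 (4.35%), against 1.31%. Among the 15 matched genes called lower, 2 held the NRF1 motif, 3 the GABPA motif and 0 the receptor motif, and among the 52 tested and not called 10, 8 and 3 did. The motif AAGATGGC of YY1 was in 0 of the 69 and in 1.59% of all promoters, and CCAATCAG in 3 (4.35%) and in 4.07%. With every listed start of a gene searched, NRF1 motifs were in 13 of the 69 and in 3 of the 15 called lower (Atp5c1 added), GABPA motifs in 12 and the YY1 motif in 1 (Atp5j added to both). A match is a description of the sequence, not a bound site.

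The called members with the most matches are shown, 5′ to 3′ on the gene's strand, with NRF1 and GABPA motifs on either strand in capitals (GABPA motifs read CTTCCGG here).
Cox6a1 (chr5:115348959-115349208, minus strand): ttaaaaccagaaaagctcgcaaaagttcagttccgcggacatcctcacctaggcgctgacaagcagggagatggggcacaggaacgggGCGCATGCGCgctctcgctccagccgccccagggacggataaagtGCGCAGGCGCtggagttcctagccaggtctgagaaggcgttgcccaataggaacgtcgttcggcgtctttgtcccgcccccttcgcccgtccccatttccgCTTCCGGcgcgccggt
Atp5h (chr11:115419920-115420169, minus strand): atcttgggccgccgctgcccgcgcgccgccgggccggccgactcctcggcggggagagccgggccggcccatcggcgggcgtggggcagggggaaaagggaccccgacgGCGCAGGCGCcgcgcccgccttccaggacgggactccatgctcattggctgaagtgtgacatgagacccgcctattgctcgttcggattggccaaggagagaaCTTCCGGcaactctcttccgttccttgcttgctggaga
Uqcrh (chr4:116075071-116075320, minus strand): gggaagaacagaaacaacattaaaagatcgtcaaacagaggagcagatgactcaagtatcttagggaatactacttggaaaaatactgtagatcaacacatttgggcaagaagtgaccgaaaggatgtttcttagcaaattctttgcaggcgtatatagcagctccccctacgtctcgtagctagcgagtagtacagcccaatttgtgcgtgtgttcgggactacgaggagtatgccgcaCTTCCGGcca

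Among 19 regulators of mitochondrial biogenesis, 4 fell in the left bulbs and 0 rose (21.05%, where 6.46% of all genes fell and 3.16% rose). Scaled by the library total only, the same 4 fell and 2 rose, Sirt1, a deacetylase, and Gabpb2, a partner of Gabpa (adjusted p = 0.0319 and 0.0425, against 0.0948 and 0.122 with TMM factors). Esrrg, an oestrogen-related receptor, stood at 24.8 and 23.2 CPM in left 1037 and left 1039, against 46.9, 41.8 and 36.4 CPM in right 1037, 1038 and 1039. It fell by 0.88 (SE 0.12, adjusted p = 0.00237) and was called in every leave-out. Esrra, its relative, stood at 43.7 and 43.1 CPM on the left, against 52.9, 53.3 and 51.2 CPM on the right, and fell by 0.35 (SE 0.07, adjusted p = 0.0167). The coactivators Ppargc1a and Ppargc1b, which bind these receptors, fell by 0.38 (SE 0.08, adjusted p = 0.0139) and 0.58 (SE 0.13, adjusted p = 0.0239). Ppargc1a had 95.7 and 102.2 CPM on the left, against 131, 121 and 113 CPM on the right, and lost its call without left 1037 (adjusted p = 0.0651). The calls of Esrra and Ppargc1b ended without any one of left 1039, right 1037 and right 1038, with adjusted p up to 0.0790 and 0.140. Nrf1 and Gabpa had 0.13 and 0.18 (adjusted p = 0.490 and 0.197), and Tfam, which packages and transcribes the mitochondrial genome, had -0.04 (adjusted p = 0.828). These 3, and the 2 named for the other scaling, were picked with their values known. The median of the 19 was 0.01.

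**Figure D4:**
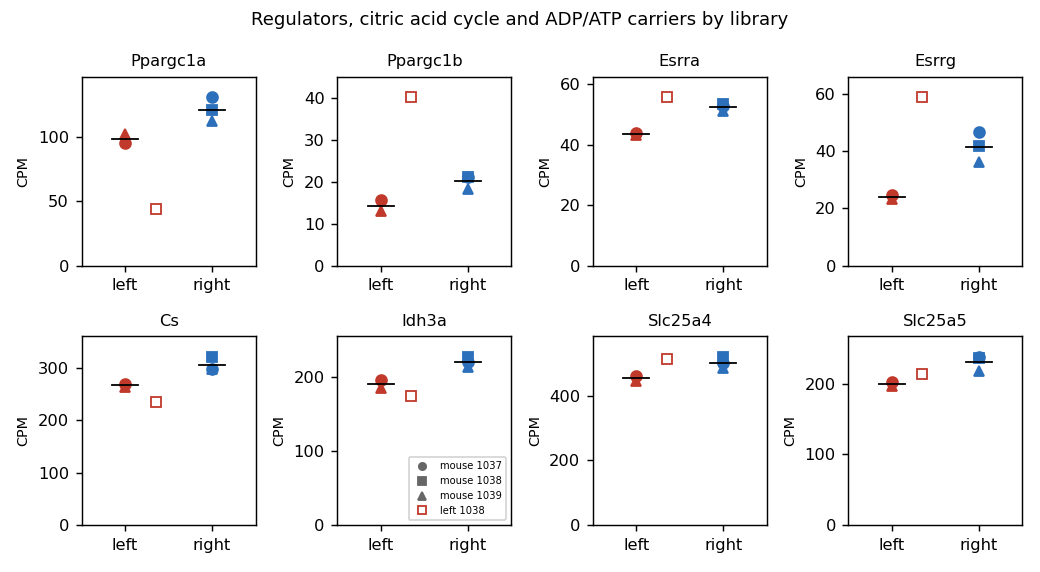
CPM in each library of the 4 regulators called lower on the left and of 4 genes of the citric acid cycle and of ADP/ATP exchange (axes start at 0). Red is left and blue is right, the symbol gives the mouse, black lines are the means of left 1037 and 1039 and of the 3 right libraries, and the open square is the library labelled left 1038. In the 5 libraries each gene's left values lie below its right values.

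Genes that feed or drain the chain gave some calls. Of 21 genes of pyruvate entry and the citric acid cycle, 5 fell, 0 rose and 19 had a log2 fold change below 0, with a median of -0.17, where 6.46% of all genes fell. Idh3a, a subunit of isocitrate dehydrogenase, fell by 0.30 (adjusted p = 0.0143), Cs, citrate synthase, by 0.28 (adjusted p = 0.0172) and Ogdh, of oxoglutarate dehydrogenase, by 0.26 (adjusted p = 0.0312). Dlat, of pyruvate dehydrogenase, fell by 0.30 (adjusted p = 0.0473) and was named after its value was seen. All 5 calls ended when left 1039, right 1037 or right 1038 was left out, with adjusted p reaching 0.244, and that of Ogdh also without right 1039. Of 13 carriers and pores, 3 fell, the ADP/ATP exchangers Slc25a5 and Slc25a4 by 0.29 and 0.23 (adjusted p = 0.0194 and 0.0411) and the outer membrane pore Vdac1 by 0.24 (adjusted p = 0.0338), and these calls ended in the same 3 leave-outs (adjusted p up to 0.158). Scaled by the library total only, 1 of the 21 genes of the cycle fell, Idh3a, and of the 13 carriers and pores 0 fell and 1 rose, the uncoupling protein relative Slc25a27 (adjusted p = 0.0318, named with its value known). The calls of Slc25a4 and Vdac1 also ended without left 1037, and that of Slc25a4 without right 1039. The block by mouse also ended that of Slc25a4 (adjusted p = 0.0760) and added a lower call of the carrier Slc25a13 (adjusted p = 0.0346, and 0.629 without the block).

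Genes that build mitochondria and express their genome gave few calls. Of 47 assembly factors, 2 fell (4.255%, where 6.46% of all genes fell), and the median was -0.05. Atpaf1 of the ATP synthase fell by 0.32 (adjusted p = 0.0184) and Ttc19 of complex III by 0.36 (adjusted p = 0.0294). Both calls ended without right 1038, that of Atpaf1 also without left 1037 or right 1039 (reaching an adjusted p of 0.105), and that of Ttc19 also without left 1039 or right 1037 (adjusted p up to 0.137). Scaled by the library total only, neither was called. Of 77 proteins of the mitochondrial ribosome 0 were called by edgeR, with 5 at an unadjusted p under 0.05 and a median of -0.05. Of 22 genes of protein import 0 were called, with 5 at an unadjusted p under 0.05 and a median of -0.09. Of 25 genes that copy, transcribe or process the mitochondrial genome 0 were called, with 1 at an unadjusted p under 0.05 and a median of 0.03. With the library total as the scale 1 of these rose, Ssbp1, which binds single-stranded DNA (adjusted p = 0.0411). These medians stand beside 0.005 for all genes tested. Whether they differ from the median of the members was not tested.

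With all 6 libraries as labelled, edgeR called no member. Of 94 members tested, edgeR called 0, where it called 0 of all 14209 genes, with 8 members and 1196 genes at an unadjusted p under 0.05. DESeq2 called 1 member, mt-Nd6 (log2 fold change -1.184, adjusted p = 3.95e-06), and limma-voom called 0. The median over the nuclear members was -0.03 and over the mitochondrial genes -0.29. In this fit Cox8a and Cox6a1 stood above 0, at 0.23 and 0.16.

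The library labelled left 1038 held more nuclear respiratory RNA than any bulb library. Of the 82 nuclear members with at least 1 CPM, 60 lay above all 5 other libraries, 3 below and 19 within their range, where 36.5% of all 13827 such genes lay above and 41.5% below, and the median ratio to the median of the 5 was 1.177, where that of all these genes was 0.974. Complexes I, III and IV had medians of 1.22, 1.175 and 1.28. Complex II was at 1.01, Cycs at 1.00, and the mitochondrial genes at 0.939, with 9 of 12 within the range of the others. The nuclear members took 1.01% of its counts and the mitochondrial genome 4.37%, a ratio of 4.32. Over 2-fold changes were 3 of 94 members, where 8.59% of all genes lay over 2-fold higher and 17.4% over 2-fold lower. They were mt-Nd3, at 2.33 CPM (ratio 2.27), Cox7a1, at 2.75 CPM (ratio 2.18), and mt-Nd6, at 6.79 CPM (ratio 0.440). With 1 library there is no test of these values. Against right 1038, its partner by label, 24 of the 94 members were lower in CPM, and 12 of the 27 called members were. Among the regulators Ppargc1a was at 44.4 CPM in this library, below all others, and Esrrg at 59.0 CPM and Ppargc1b at 40.2 CPM, above all others.

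**Figure D5:**
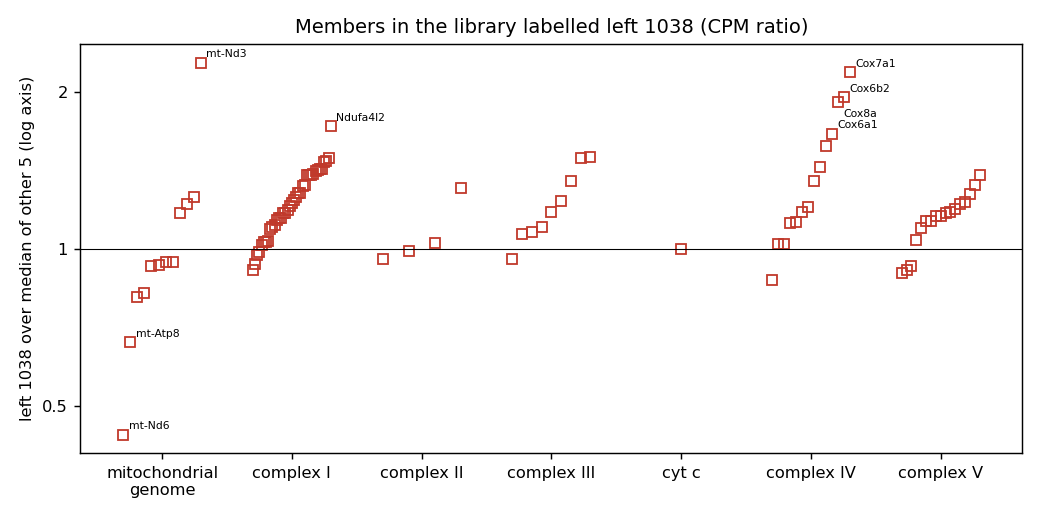
CPM of each member in the library labelled left 1038 divided by its median in the other 5 libraries, on a log axis, for members with a median of at least 1 CPM. Names mark ratios above 1.6 or below 0.7. Most nuclear members lie above 1, and most mitochondrial genes lie below it.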

How the data were processed

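The deposited table holds, for each gene, whole-number read counts that were not normalized, with RPKM values and a length, as its file headers say. RPKM values computed again from counts and length differed from the deposited ones by at most 3.82e-11, but the length is the genomic span except for the 13 mitochondrial genes, so these values were not used and levels per kilobase rest on GENCODE M21 transcripts. Per the submitters' processing notes, the build was GRCm38 and the tools were HTSeq 0.6.1p2, DESeq 1.18.0, TopHat2 and cutadapt 1.2.1. Strand use and the counting of reads with several positions are not given in the sources used here. Of 22095 genes 21852 matched a symbol and 243 did not, and 4062 were at 0 in all libraries. Of the members, 30 overlap an exon of another gene of the table, 56 share at least one 50-base word with another annotated gene and 11 over 50% of them. No pair of libraries held identical counts, and 0 columns of other samples were present.

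All genes passing filterByExpr were fitted with edgeR 4.0.16 (quasi-likelihood test, TMM scaling) in R 4.3.3 and side alone as the model term. Every adjusted p of the text is from this test after Benjamini-Hochberg adjustment over all genes tested, two-sided, unless another tool is named, with calls under 0.05. The SE was taken from the F statistic, as the absolute log2 fold change over its square root. The test was checked on simulated counts. Libraries with the same number come from one animal per the labels, and so form pairs by design. Within a pair, the deviations from the mean of each side correlated at 0.056 (mouse 1037), 0.047 (mouse 1038) and 0.122 (mouse 1039), with the library labelled left 1038 included. That library enters the mean of the left side, so these values cannot tell how far the pairs matter in the 5 libraries. The mouse was added as a block in a further fit, and where the call of a member or of a gene of the other mitochondrial lists changed, the value is given with the gene. The p-values of the main fit measure the spread between the libraries of each side, which come from different mice, and take no account of the pairs. Both bulbs of mice 1037 and 1039 entered it as separate libraries.

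Alternatives were RLE factors, library totals, scaling by genes outside the mitochondrial genome, 2 other filters, DESeq2 1.42.0, limma-voom (limma 3.58.1), all 6 libraries, both bulbs of mouse 1038 left out, each library left out, and the block. DESeq2 with the block was chosen after seeing the data. Summed levels were also taken relative to the counts of genes outside the mitochondrial genome. Members and lists were chosen with earlier results of these data known. Named genes were all mitochondrial protein genes, every called member, the 3 members with the smallest p of each nuclear complex, isoforms of other tissues, members over 2-fold apart in the library labelled left 1038 at a mean of at least 1 CPM, and up to 4 called genes of each other list. Others named were chosen after their values were seen. Some genes that this rule names are counted but not reported singly here. Figures were drawn with matplotlib 3.10.9.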

Additional observations from a re-analysis of the deposited data

How the results depend on the processing

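With 5 libraries no alternative called a member higher except scaling by library totals, and the median of the nuclear and of the mitochondrial members stayed below 0 in every alternative. Scaling by library totals gave 975 genes higher and 589 lower, 2 members higher and 9 lower, and a nuclear median of -0.094. All 6 libraries gave 0 genes higher and 0 lower, 0 members lower, and medians of -0.034 (nuclear) and -0.29 (mitochondrial). Leaving out both bulbs of mouse 1038, here the same fit as leaving out right 1038, gave 172 genes higher, 488 lower and 4 members lower. DESeq2 with the block, chosen after seeing the data, gave 76 genes higher, 356 lower and 7 members lower (mt-Co1, mt-Cytb, mt-Nd1, mt-Nd2, mt-Nd4, mt-Nd5 and mt-Nd6). With the replicate block by mouse edgeR called 24 members lower, 23 of them among the 27, and 492 genes higher and 1061 lower. DESeq2 and limma-voom each shared 24 of the 27 calls, RLE factors 23, and scaling by genes outside the mitochondrial genome 27. With 1 library left out, 172 to 366 genes were higher, 479 to 768 lower and 4 to 22 members lower, with a mitochondrial median from -0.51 to -0.28. In the fit of 6 libraries, DESeq2 gave 44 genes higher, 142 lower and 1 member lower, and with the block 3, 23 and 1, and the block by edgeR gave 0 calls. Leaving out both bulbs of mouse 1038, again the same fit, gave 172, 488 and 4, with medians of -0.16 (nuclear) and -0.42 (mitochondrial). The nuclear median turned to 0.0093 with library totals, and with 1 library left out it ran from -0.18 (without left 1038) to 0.040 (without left 1037) and the mitochondrial one from -0.41 (without left 1038) to -0.19, with 0 to 456 genes higher, 0 to 931 lower and 0 to 27 members lower. With all 6 libraries 30 of the 94 tested members turned sign, and 59 lay below 0, against 89 with 5 libraries. With 1 of the 5 libraries left out, 9 turned sign in some fit (Atp5g2, Cox4i2, Cox7a2l, Ndufb2, Ndufc1, Ndufs6, Ndufs8, Sdhd and mt-Co2). Among the results followed through every alternative those that turned were Cox6a1 (0.16), Cox8a (0.23), Ppargc1b (0.16) and the complex I median (0.006) with all 6 libraries, and Cox4i2 and mt-Co2 with 1 library left out (from -1.09 without left 1039 to 0.073 without left 1037, and from -0.26 without left 1039 to 0.17 without right 1039). Causes were not tested. Relative to the counts of genes outside the mitochondrial genome, the left to right ratio was 0.782 for the mitochondrial genome and 0.829 to 0.932 for the nuclear groups. Genes at a few reads, such as mt-Nd3, mt-Nd4l and the isoforms of other tissues, are limited by depth.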

Other observations

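Each mouse gave a value of the mitochondrial share that can be set beside the sensory axon markers. In mouse 1037 the left to right ratio of summed mitochondrial CPM was 0.853, and in mouse 1039 it was 0.711. The sums of the sensory axon genes were 190 CPM in left 1037 and 128 CPM in left 1039, against 458 CPM in right 1037 and 373 CPM in right 1039. With 2 mice no relation between these values can be tested.

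The ratios of the nuclear groups differed less between the mice, with 0.942 in mouse 1037 and 0.984 in mouse 1039 for complex I, 0.894 and 0.934 for complex IV, and 0.898 and 0.939 for complex V. For Cycs they were 0.851 and 0.809. So the mouse with the lower mitochondrial ratio had the higher ratios for complexes I, IV and V, in 2 animals and without a test.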
